A study of Mus musculus with 15 samples.

Results

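The guanylate-binding proteins analysed here were Gbp2b, Gbp2, Gbp3, Gbp5 and Gbp6, 5 genes chosen by symbol out of 18217 gene symbols that the mouse array measured. Each of the 5 was represented by 1 probe: A_51_P398766 for Gbp2b (the gene formerly written Gbp1), A_51_P203955 for Gbp2, A_51_P165244 for Gbp3, A_52_P327664 for Gbp5 and A_52_P189772 for Gbp6. All 5 passed into every test, since no probe was left out for a low signal.

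The data came from 15 single-colour arrays of graft or control tissue from male mice, 3 arrays for each of 5 groups, and compared allografts with control tissue. Cardiac allografts were C57BL/10 hearts placed in the abdomen of CBA recipients and taken 5 days after transplantation (POD5), and hepatic allografts were B10.BR livers placed orthotopically in B10.D2 recipients and taken at POD5 or at day 8 (POD8). The heart and liver controls are described as normal tissue in the labels and as isografts elsewhere in the study, their strain is not given, and they are called controls here. The organs therefore differed in donor strain, recipient strain and site as well as in tissue, and an allograft holds recipient cells of another strain than the graft. The ages of the mice are not given in the sources used here. The methods speak of 3 heart allografts, 3 normal tissues per organ and, for the PCR experiments, 3 mice at each time, while the labels do not tie arrays to animals. The P-values measure the spread between these arrays.

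Guanylate-binding proteins are large GTPases that interferon gamma induces strongly in most cell types, in part through IRF1. They assemble on the vacuoles and membranes of intracellular bacteria and parasites, several of them are anchored there by a prenyl group, and they promote inflammasome activation and pyroptosis. T cells and NK cells are the main producers of interferon gamma in a rejecting graft. In the mouse the family lies in a cluster on chromosome 3, which holds Gbp2b, Gbp2, Gbp3, Gbp5 and Gbp7, and another on chromosome 5, which holds Gbp6, Gbp4, Gbp8 and Gbp9.

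Upstream sequence of the 4 members on chromosome 3 that the promoter table holds is shown because all of them rose in both organs and interferon signalling acts on such regions. Each stretch is the 250 bases before an annotated start site on the plus strand, from RefSeq in build GRCm38.p6. Capitals mark matches on either strand to 2 motifs: GAAANNGAA, the core of the interferon-stimulated response element that IRF and ISGF3 factors bind, and TTCNNNGAA, the gamma-activated site of interferon gamma responses. The intervals are chr3:142594597-142594846 for Gbp2b, chr3:142620413-142620662 for Gbp2, chr3:142559794-142560043 for Gbp3 and chr3:142496684-142496933 for Gbp5.
Gbp2b: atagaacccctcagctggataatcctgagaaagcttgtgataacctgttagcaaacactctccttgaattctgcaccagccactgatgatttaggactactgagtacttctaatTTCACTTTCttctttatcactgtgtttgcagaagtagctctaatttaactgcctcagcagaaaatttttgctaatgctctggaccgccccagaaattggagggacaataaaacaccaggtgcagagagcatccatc
Gbp2: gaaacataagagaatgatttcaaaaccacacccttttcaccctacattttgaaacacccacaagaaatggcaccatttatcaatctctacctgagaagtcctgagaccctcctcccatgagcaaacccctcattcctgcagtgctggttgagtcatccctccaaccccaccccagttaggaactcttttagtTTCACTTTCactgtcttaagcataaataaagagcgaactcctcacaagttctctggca
Gbp3: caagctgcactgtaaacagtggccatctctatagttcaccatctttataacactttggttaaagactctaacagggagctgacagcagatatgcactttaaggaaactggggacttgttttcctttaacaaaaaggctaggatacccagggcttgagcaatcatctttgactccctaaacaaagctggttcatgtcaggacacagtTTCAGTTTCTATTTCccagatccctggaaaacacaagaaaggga
Gbp5: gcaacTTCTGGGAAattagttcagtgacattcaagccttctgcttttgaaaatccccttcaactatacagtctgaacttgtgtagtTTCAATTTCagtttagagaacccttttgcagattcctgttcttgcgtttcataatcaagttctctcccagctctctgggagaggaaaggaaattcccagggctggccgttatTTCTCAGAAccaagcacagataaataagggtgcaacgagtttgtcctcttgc
The response element core was found in all 4 of these windows, each time on the minus strand. It lay 136 to 128 bases before the start of Gbp2b, 58 to 50 bases before that of Gbp2 and 164 to 156 bases before that of Gbp5, and Gbp3 held 2 overlapping copies between 44 and 30 bases before its start. Gbp5 alone of the 4 also held the gamma-activated site, in 2 copies, at 245 to 237 and at 52 to 44 bases before its start. Among 32851 mouse promoter windows of the same 250 bases, 7.13% held the response element core, 7.02% the gamma-activated site and 0.752% both. A second annotated start of Gbp3 had neither motif in its window, and Gbp6 was not in the table. These matches describe letters only, and binding was not measured.

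The 75th percentile of the processed signal ran from 92.1 to 226 on the liver control arrays, from 338 to 478 on the POD5 and from 384 to 454 on the POD8 liver arrays, from 394 to 710 in the heart allografts and from 1021 to 1247 in the heart controls, and 52.5 to 70.5% of probes were well above background. Arrays were therefore quantile normalized, and levels are given as log2 of the normalized intensity, which can be compared between arrays for 1 probe but not between probes. Summed cardiomyocyte markers were at 777967 to 900861 in heart controls and at 435 to 671 in liver controls, and hepatocyte markers at 350 to 422 and at 396219 to 442541, as the tissue labels say. Heart controls lay together on 1 slide and heart allografts together on another, and for the heart the effects of slide and of grafting cannot be told apart. The POD5 livers shared no slide with the liver controls or the POD8 livers, and heart controls shared none with liver controls. In these comparisons too, the effects of slide and of group cannot be told apart. In bulk tissue, fewer cells of a type and less RNA per cell cannot be told apart. Scaling each array to its 75th percentile instead changed the share of higher probes among all called probes from 48.7 to 74.2% in the heart, from 71 to 18.4% in liver at POD8, from 46.9 to 82.3% for the difference between organs and from 52.9 to 30.9% between the control groups.

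Gbp2b had the widest range of levels. Its level was 11.67, 11.31 and 11.89 in the 3 heart allografts against 2.36, 1.36 and 1.20 in the 3 heart controls. In liver it was 10.87, 10.67 and 11.09 at POD5, 11.23, 11.38 and 11.49 at POD8 and 6.0, 7.32 and 8.28 in controls. The probe was well above background on every allograft array and on 3 of 3 liver controls, but on 0 of 3 heart controls, where the processed signal before normalization was 10.9, 2.65 and 1.98. The heart controls thus lay far below every other array, and the liver controls spread more widely among themselves (SD 1.15, n = 3) than any allograft group.

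Gbp2, which acts with other members on pathogen vacuoles, was bright in every allograft. Its level was 16.72, 16.19 and 16.67 in heart allografts and 11.98, 10.96 and 11.54 in heart controls. The liver arrays gave 14.00, 13.80 and 14.03 at POD5, 13.67, 13.89 and 13.55 at POD8, and 8.14, 9.27 and 9.68 in controls. Every allograft lay above every control of its organ, and the heart controls lay above the liver controls.

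Gbp3, another vacuole-associated member, had the smallest span of the 5. Heart allografts measured 14.71, 13.99 and 14.66 and heart controls 11.69, 10.90 and 11.43. Liver values were 12.44, 12.29 and 12.76 at POD5, 12.53, 12.80 and 12.48 at POD8, and 8.96, 9.18 and 9.78 in controls. The groups were ordered as for Gbp2, except that the POD5 and POD8 livers, which overlapped for both genes, changed places.

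Gbp5, a prenylated member known for its part in NLRP3 and AIM2 inflammasome activation, differed between all neighbouring groups without overlap. Its heart allografts were at 13.12, 12.95 and 13.63 and its heart controls at 8.94, 8.22 and 8.30. Liver levels were 10.28, 10.27 and 10.20 at POD5, 11.19, 11.34 and 11.14 at POD8 and 6.88, 6.80 and 6.95 in controls. The liver replicates were tight, with SDs of 0.045 at POD5, 0.104 at POD8 and 0.073 in controls.

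Gbp6, from the chromosome 5 cluster, was at 15.37, 14.53 and 15.33 in heart allografts and at 8.85, 8.94 and 8.73 in heart controls. In liver it was at 11.85, 11.76 and 12.24 at POD5, at 12.54, 12.75 and 12.45 at POD8, and at 8.66, 7.65 and 8.41 in controls. Its groups did not overlap, although the heart controls exceeded the highest liver control by little. Probes of this family can bind transcripts of close relatives, which was not tested.

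**Figure D1:**
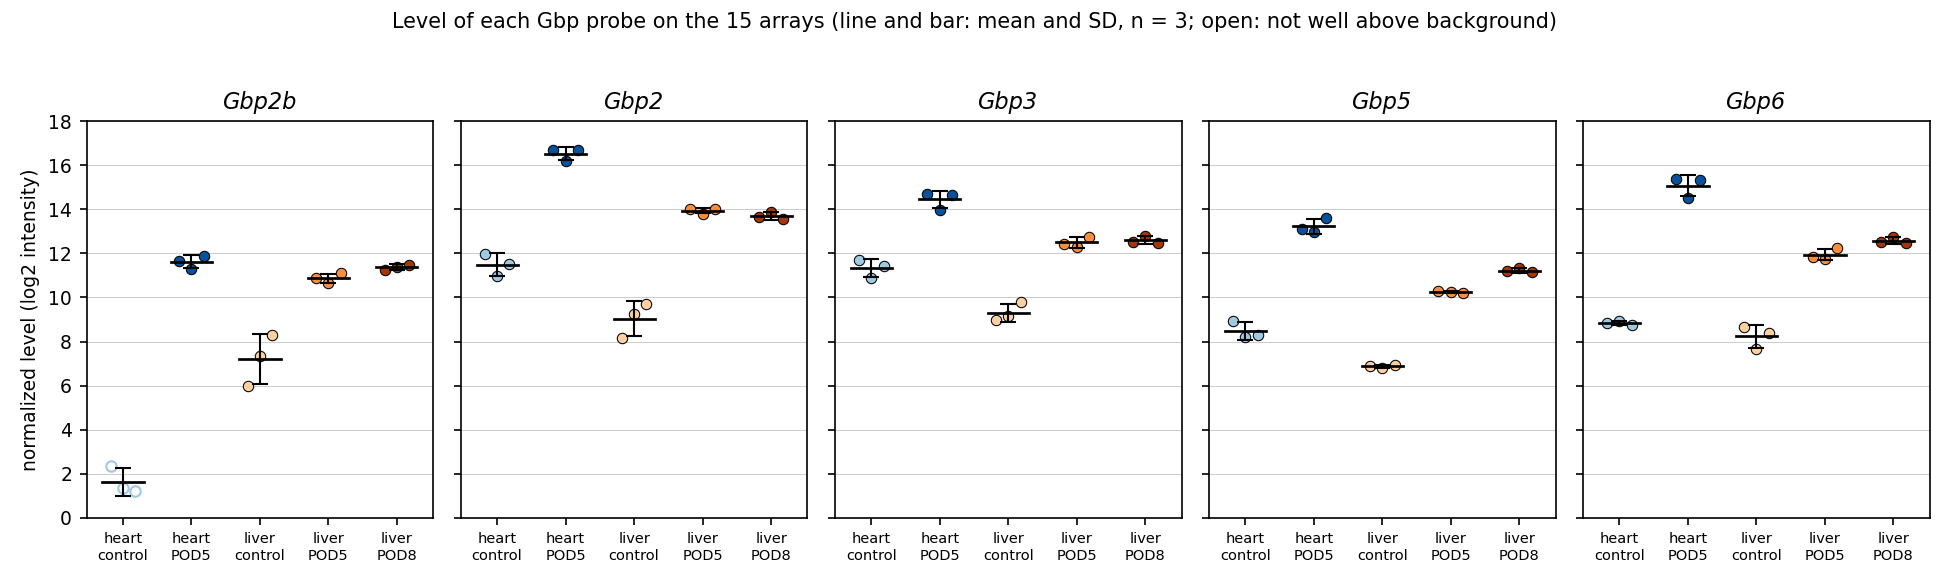
Normalized level (log2 intensity) of each Gbp probe on the 15 arrays, with 1 point per array and the mean and SD of each group of 3. Allografts lie above the controls of their organ for all 5 genes, and the open Gbp2b points are the heart controls, at 1.20 to 2.36, which were not well above background.

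From the lowest to the highest mean, Gbp2, Gbp3, Gbp5 and Gbp6 ran from liver controls through heart controls and the 2 liver allograft groups to heart allografts. Gbp2b ran from heart controls (mean 1.64) through liver controls (7.20), liver POD5 (10.88) and liver POD8 (11.37) to heart allografts (11.62). Neighbouring groups overlapped in 3 places: POD8 livers and heart allografts for Gbp2b, and POD5 and POD8 livers for Gbp2 and for Gbp3.

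The heart comparison asked which genes changed in cardiac allografts at POD5. All 5 guanylate-binding proteins rose, with no overlap between allografts and controls. By limma with Benjamini-Hochberg adjustment over 41025 probes, 15.6% of all probes were called higher and 16.4% lower, and 29.1% had every allograft above every control. Gbp2b was at least 569-fold higher, a bound set against the lowest signal well above background on each control array, and its fitted difference was 9.98 on the log2 scale (SE 0.35, adjusted P = 4.1e-04). Gbp6 rose 75.5-fold (log2 difference 6.24, SE 0.25, adjusted P = 4.8e-04). Gbp2 rose 32.7-fold (log2 difference 5.03, SE 0.30, adjusted P = 8.5e-04), and Gbp5 rose 26.8-fold (log2 difference 4.75, SE 0.27, adjusted P = 7.9e-04). Gbp3 had the smallest rise, 8.64-fold (log2 difference 3.11, SE 0.29, adjusted P = 0.0021). Heart allograft replicate 2 lay below its group mean for all 5 genes and heart control replicate 1 above, and leaving out any of the 6 arrays kept all 5 calls. The Gbp2b bound depends on the processing. With normexp background correction on median signals the fitted Gbp2b difference was 5.63 on the log2 scale, which is below that bound.

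In the hepatic allografts at POD5, again compared with control liver, all 5 genes were higher without overlap, where 2.38% of 41155 probes were called higher, 0.778% lower, and 12.4% had every allograft above every control. Gbp2 rose most, 30.1-fold (log2 difference 4.91, SE 0.42, adjusted P = 0.011). Gbp6 rose 13.1-fold (3.71, SE 0.31, adjusted P = 0.011) and Gbp2b 12.8-fold (3.68, SE 0.59, adjusted P = 0.044). For Gbp5 the rise was 10.3-fold (3.37, SE 0.12, adjusted P = 0.0041), and for Gbp3 it was 9.14-fold (3.19, SE 0.26, adjusted P = 0.011). Between 1 and 5 of these calls were left when single arrays were left out, with 1 call without POD5 replicate 1 or replicate 2 and 3 without replicate 3, which lay on the slide of the heart allografts. The count over all probes fell with them, from 1301 to 80, 28 and 329. Gbp2b was also not called without liver control replicate 2 (adjusted P = 0.12) or with the slide as a random block (adjusted P = 0.079).

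At POD8 the hepatic allografts, tested against the same 3 liver controls as at POD5, also had all 5 members higher without overlap. Among 41157 probes 3.53% were called higher, 1.44% lower, and 12.9% had every allograft above every control. Gbp2 was 25.5-fold higher (log2 difference 4.67, SE 0.42, adjusted P = 0.0084), Gbp5 20.3-fold (4.34, SE 0.11, adjusted P = 6.6e-04) and Gbp6 20.3-fold (4.34, SE 0.29, adjusted P = 0.0038). Gbp2b was 18-fold higher (4.17, SE 0.58, adjusted P = 0.026) and Gbp3 9.85-fold (3.30, SE 0.24, adjusted P = 0.0052). On the slide that held 2 POD8 livers and 2 controls, the log2 differences were 4.65 for Gbp2b, 5.07 for Gbp2, 3.60 for Gbp3, 4.42 for Gbp5 and 4.49 for Gbp6, but with the slide as a fixed block 0 of 5 were called (adjusted P from 0.053 to 0.095). The count over all probes was also 0 with that block. Without POD8 replicate 1 or replicate 2, 3 of the 5 calls were left, while the count over all probes fell from 2046 to 300 and 341. The Gbp2b call was also lost without POD8 replicate 3 (adjusted P = 0.097) or control replicate 2 (adjusted P = 0.070) and by the methods' t-test with Benjamini-Hochberg adjustment (adjusted P = 0.083).

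The study's own statistic, the standardized fold change (SFC), divides the difference of group medians by a standard deviation estimated from neighbouring probes. With Bonferroni adjustment it called 0.336% of probes higher in the heart, 0.787% in liver at POD5 and 0.819% at POD8. All 5 members were among them in both liver comparisons, and 4 of 5 were in the heart, where Gbp3 had an SFC of 4.32 and an adjusted P of 0.64.

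**Figure D2:**
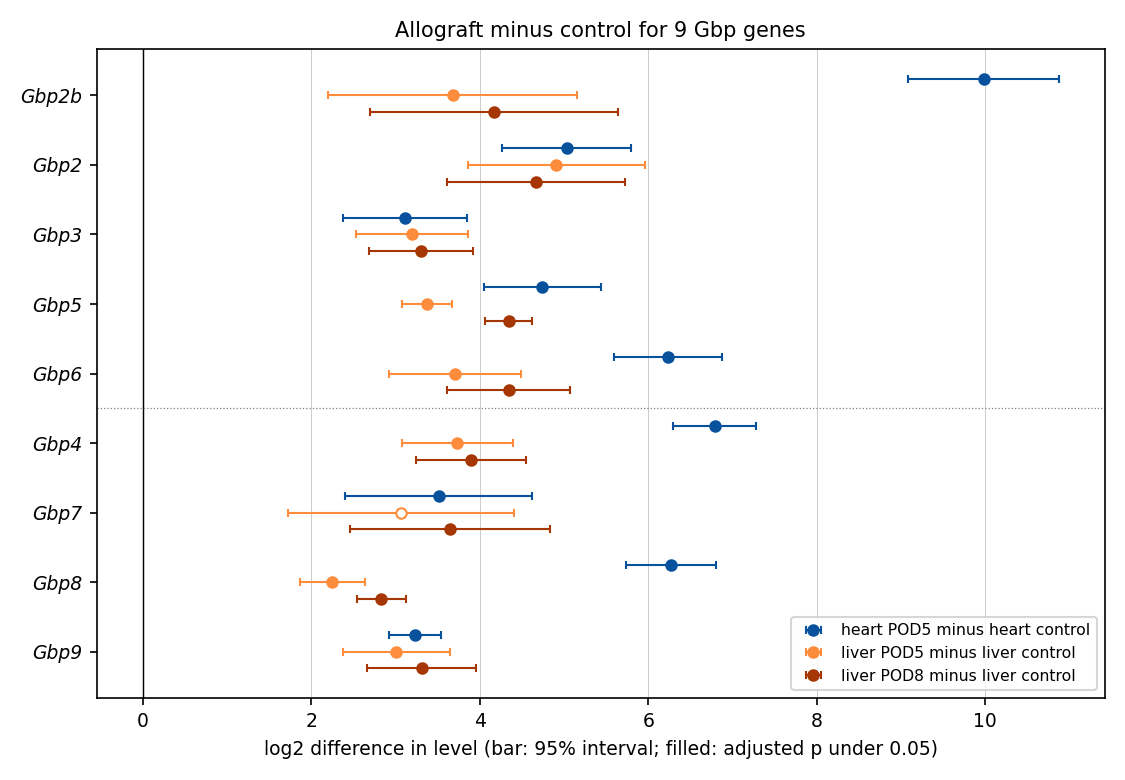
Log2 difference in level between allografts and controls (x axis) for the 5 members and, below the dotted line, 4 other measured Gbp genes, with 95% intervals and filled points at an adjusted P under 0.05. All differences lie above 0, and those of Gbp2b in heart (9.98) and of Gbp4, Gbp6 and Gbp8 in heart stand to the right of the liver differences of the same gene.

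The change from POD5 to POD8 in liver was smaller than the change from controls. Of 41165 probes, 0 (0%) were called higher or lower by limma, 5299 had an unadjusted P under 0.05, the methods' t-test called 3 after Benjamini-Hochberg adjustment, SFC called 213 after Bonferroni adjustment, and 9.29% had every POD8 array above every POD5 array. Of the 5 members, 3 had this separation, 0 were called, and 3 had an unadjusted P under 0.05. Gbp5 differed by 0.97 on the log2 scale (SE 0.098, adjusted P = 0.21), Gbp6 by 0.63 (SE 0.17, adjusted P = 0.28) and Gbp2b by 0.49 (SE 0.15, adjusted P = 0.30). Gbp3 differed by 0.11 (95% interval -0.31 to 0.52) and Gbp2 by -0.24 (95% interval -0.57 to 0.09), both with overlapping groups.

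The heart and liver differences at POD5 were compared as an interaction in 1 fit of 12 arrays, in which 6.41% of 41006 probes had a larger and 7.26% a smaller difference in heart. The difference was larger in heart for Gbp2b (by 6.30, SE 0.72, adjusted P = 0.0012), Gbp6 (by 2.53, SE 0.42, adjusted P = 0.0063) and Gbp5 (by 1.37, SE 0.31, adjusted P = 0.020). For Gbp2 it was larger by 0.12 (95% interval -1.09 to 1.33, adjusted P = 0.90), and for Gbp3 by -0.08 (95% interval -1.0 to 0.84, adjusted P = 0.92). The Gbp2b value depends on heart controls below background and was 2.51 with normexp correction (adjusted P = 0.0064). The Gbp5 call was lost without heart control replicate 3 (adjusted P = 0.057) and with the slide as a random block (adjusted P = 0.063).

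**Figure D3:**
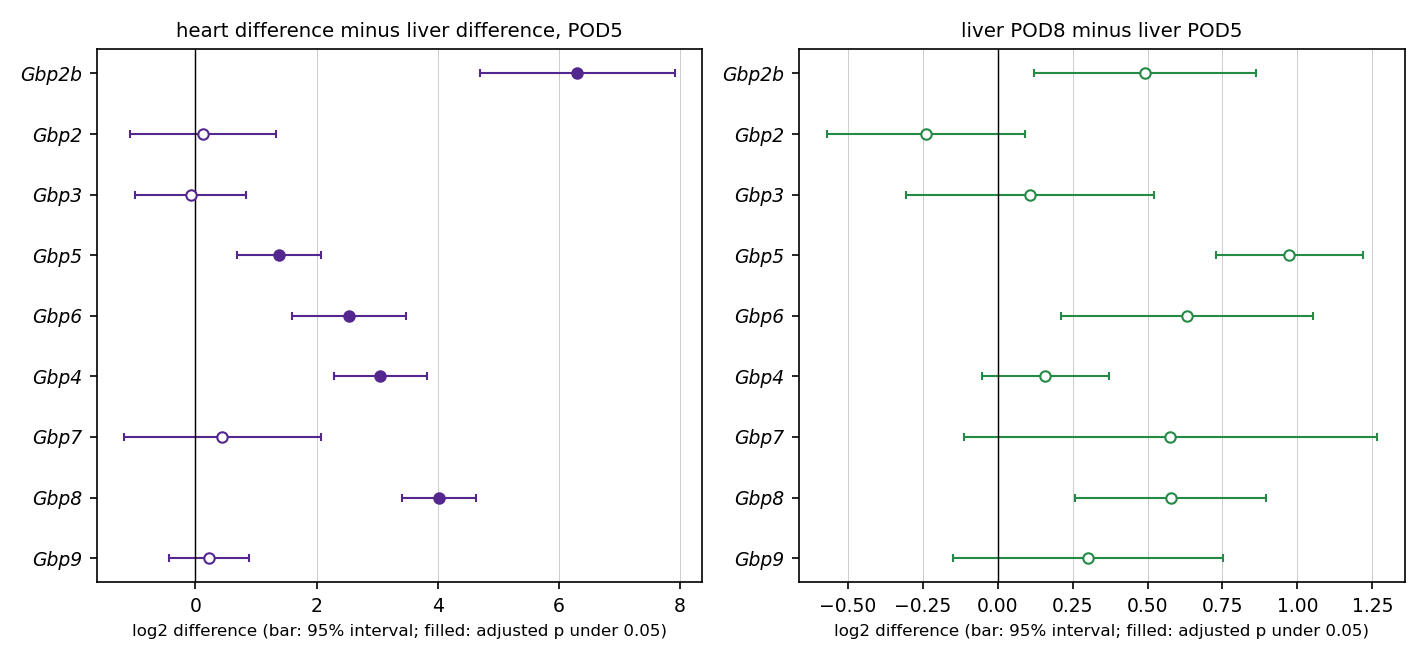
Left, the heart log2 difference at POD5 minus the liver log2 difference at POD5 for 9 Gbp genes. Right, the log2 level in POD8 livers minus that in POD5 livers. Bars are 95% intervals and filled points passed an adjusted P of 0.05, which 5 genes did on the left (Gbp2b, Gbp5, Gbp6, Gbp4 and Gbp8) and 0 on the right.

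A pair of direct comparisons between groups was added after the levels had been seen. Between the controls, heart was higher than liver for Gbp2 (log2 difference 2.46, SE 0.48, adjusted P = 0.0094), Gbp3 (2.04, SE 0.30, adjusted P = 0.0036) and Gbp5 (1.61, SE 0.22, adjusted P = 0.0026). Gbp6 differed by 0.60 (95% interval -0.11 to 1.32, adjusted P = 0.14). Gbp2b went the other way and was at least 26.6-fold lower in heart controls than in liver controls (adjusted P = 0.0016). That bound depends on the processing, and with normexp correction the log2 difference in limma was -1.78 (adjusted P = 0.010). In that comparison 25.5% of 41023 probes were called higher in heart and 22.7% lower, and heart and liver did not overlap for 30.7% higher and 35.7% lower, so that separation of the controls by organ was common.

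Between the POD5 allografts, all 5 members were higher in heart than in liver without overlap, where 16.3% of 41155 probes were called higher, 12.9% lower, and 24.7% had every heart array above every liver array. The log2 differences were 3.13 for Gbp6 (SE 0.28, adjusted P = 9.3e-04), 2.98 for Gbp5 (SE 0.20, adjusted P = 3.2e-04), 2.58 for Gbp2 (SE 0.19, adjusted P = 4.0e-04) and 1.96 for Gbp3 (SE 0.25, adjusted P = 0.0033). Gbp2b differed least, by 0.74 (SE 0.20, adjusted P = 0.044), and its call was lost in 11 of 19 alternatives. Among these were the fits without heart POD5 replicate 1 or 3 or liver POD5 replicate 1 or 2, where the adjusted P ran from 0.12 to 0.14. The call was also lost with 75th percentile scaling (adjusted P = 0.14). On the slide that carried the 3 heart allografts and 1 POD5 liver, the differences were 0.53 for Gbp2b, 2.50 for Gbp2, 1.70 for Gbp3, 3.04 for Gbp5 and 2.84 for Gbp6.

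Of the rest of the family, Gbp4, Gbp7, Gbp8 and Gbp9 had probes, and Gbp10 and Gbp11 had no matched probe. Gbp4 rose by 6.79 on the log2 scale in heart (adjusted P = 3.1e-04), 3.73 in POD5 liver (adjusted P = 0.0089) and 3.89 in POD8 liver (adjusted P = 0.0038). Gbp8 rose by 6.27 in heart (adjusted P = 3.6e-04), by 2.25 in POD5 liver (adjusted P = 0.0083) and by 2.83 at POD8 (adjusted P = 0.0012). Both also had larger differences in heart than in liver, by 3.05 for Gbp4 (adjusted P = 0.0012) and by 4.02 for Gbp8 (adjusted P = 1.3e-04). Gbp9 rose by 3.23, 3.01 and 3.31 in these 3 comparisons (adjusted P = 4.4e-04, 0.011 and 0.0058), and Gbp7 rose by 3.51 in heart (adjusted P = 0.0044) and 3.64 at POD8 (adjusted P = 0.022), with 3.07 at POD5 (adjusted P = 0.052). The atlastins, membrane-fusing GTPases of the same superfamily, did not share the rise on their brightest probes. Atl1 (-1.40) and Atl2 (-0.65) fell in heart. In liver limma called 0 of 3 at either day, with 0 and 1 at an unadjusted P under 0.05 at POD5 and POD8. In heart the dimmer Atl1 probe was also lower (3.93 in allografts against 5.27 in controls). The dimmer Atl2 probes differed little there (8.68 against 8.77 and 6.01 against 6.18), and a dimmer Atl3 probe was higher (7.68 against 7.30).

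Correlation over the 15 arrays, which share the 5 groups and so carry little beyond the group means, ran from 0.938 to 0.992 among Gbp2, Gbp3, Gbp5 and Gbp6 and from 0.580 to 0.778 between Gbp2b and each of these. Of 21881 other named probes, the 5 whose pattern was most like the mean of the members were H2-Ab1 (r = 0.995), an MHC class II chain, Slamf8 (0.992), H2-DMb1 (0.991), which helps to load class II, Irf8 (0.991), an interferon regulatory factor, and Socs1 (0.989), an inhibitor of interferon signalling. H2-Ab1 ran from 11.27 in liver controls and 12.01 in heart controls to 14.71, 15.16 and 16.47 in POD5 liver, POD8 liver and heart allografts. The single closest pattern was Cxcl10, an interferon-induced chemokine, for Gbp2 (0.993) and Gbp3 (0.989), Samhd1 for Gbp5 (0.989), H2-Ab1 for Gbp6 (0.986) and H2-K2 for Gbp2b (0.989).

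Upstream of the family, Ifng, the inducing cytokine, rose by 10.56 on the log2 scale in heart (adjusted P = 4.3e-04), 5.79 in POD5 liver (adjusted P = 0.010) and 6.19 in POD8 liver (adjusted P = 0.0030), and its difference was larger in heart by 4.77 (adjusted P = 0.0025). Its level in heart and liver controls overlapped, at 4.07 to 4.42 and 3.53 to 4.78. The lowest levels well above background on the liver control arrays were 4.09 to 4.56, so that Ifng lay near this floor there. Gbp2b was separated by organ in the same controls but was not well above background in the heart controls. A link between these levels was not tested. Irf1, an interferon-induced transcription factor, rose by 4.21 in heart (adjusted P = 5.2e-04) and 2.12 at POD8 (adjusted P = 0.032), with 1.72 at POD5 (adjusted P = 0.058). Of 13 genes of the interferon gamma pathway, 10 rose and 1, the receptor chain Ifngr2, fell in heart, and 5 rose in liver at each day. The list medians were 2.06, 0.71 and 0.67, where the median of all probes was 0.02, -0.07 and -0.08. Of 5 type I interferon and receptor genes 2 rose in heart, Tyk2 by 1.62 (adjusted P = 0.0016), and limma called 0 in liver, with 1 at an unadjusted P under 0.05 at each day. Ifnb1 was not well above background on any array of the 5 groups.

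The immunity-related GTPases, a smaller interferon-induced family that also coats vacuoles, followed a like course, with 7 of 7 measured genes higher in heart and 6 of 7 in liver at each day. Tgtp1 rose most, by 5.58 in heart, 4.95 at POD5 and 5.76 at POD8 (adjusted P = 4.4e-04, 0.022 and 0.011). Of 9 autophagy conjugation genes, whose products help to place these GTPases on vacuoles, 2 fell in heart, Map1lc3b by 0.99 (log2 difference -0.99, adjusted P = 0.0027), and limma called 0 in liver, with 3 at an unadjusted P under 0.05 at each day. There Map1lc3a was at -0.97 at POD5 (adjusted P = 0.11). Of 6 prenylation enzymes, 2 rose and 1 fell in heart, and limma called 0 in liver, with 2 at an unadjusted P under 0.05 at POD5 and 1 at POD8. Over all probes, 15.6% were called higher and 16.4% lower in heart. With these shares, 1 or 2 calls in lists as short as the autophagy and prenylation lists are not a result about the lists. Rce1, the protease that follows prenylation, rose by 1.25 in heart (adjusted P = 0.0082), and Pggt1b, a subunit of a prenyl transferase, was at -0.51 in heart (adjusted P = 0.039). In POD5 liver Pggt1b was higher without being called (adjusted P = 0.13), with controls not well above background. Downstream, 6 of 8 inflammasome and pyroptosis genes rose in heart and 3 of 8 in liver at each day. Gsdmd, the pore-forming protein of pyroptosis, rose by 2.37 in heart (adjusted P = 8.7e-04) and differed by 0.44 in POD5 liver (adjusted P = 0.18), a difference between organs of 1.92 (adjusted P = 0.0011). Pycard, the inflammasome adaptor, rose by 1.66 in heart (adjusted P = 0.016) and 2.73 in POD5 liver (adjusted P = 0.037).

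**Figure D4:**
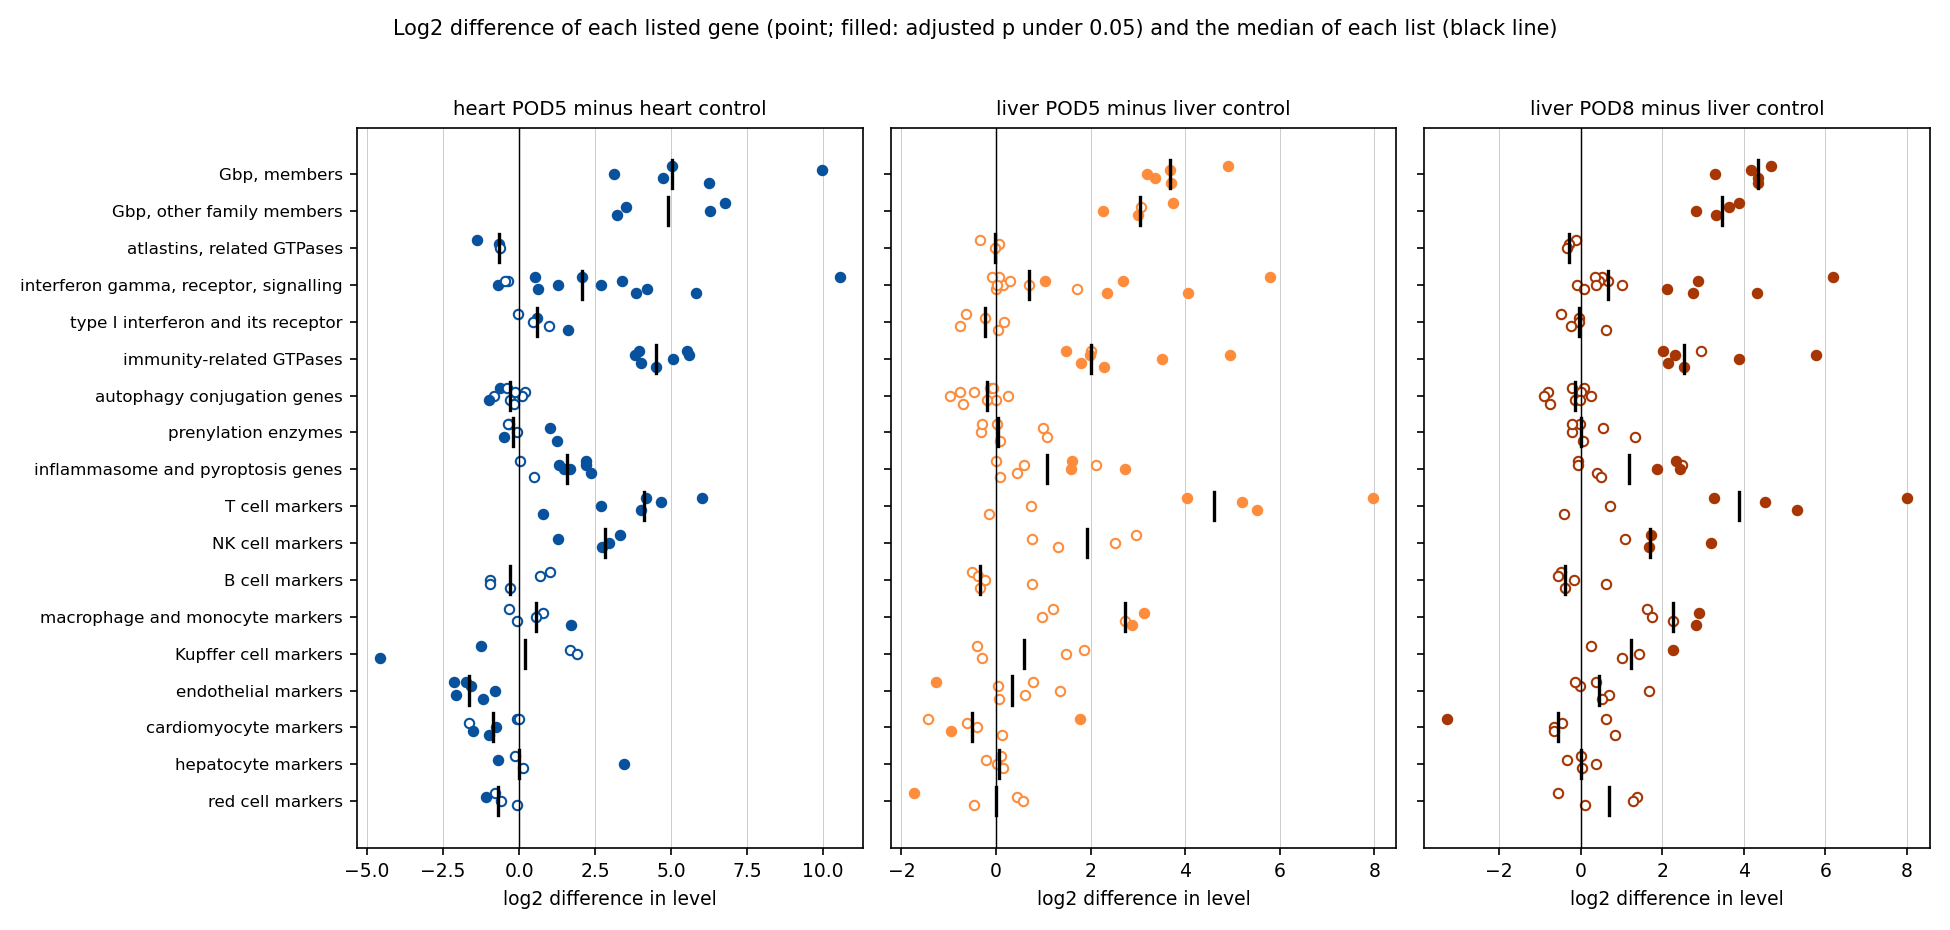
Log2 difference in level (x axis) of each listed gene in the 3 comparisons with controls, filled at an adjusted P under 0.05, with the list median as a black line. The guanylate-binding proteins and immunity-related GTPases lie above 0 throughout, and 0 of 3 atlastins lie above 0 in heart, each on its brightest probe.

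Markers of other cells moved in the same samples, and their part in the rise of the guanylate-binding proteins was not tested. T cell markers rose for 6 of 6 genes in heart and 4 of 6 in liver at each day, with summed levels of 320 to 511 in heart controls, 7711 to 11673 in heart allografts, 307 to 381 in liver controls, 5479 to 8668 at POD5 and 4969 to 6261 at POD8. Cd8a, the coreceptor of cytotoxic T cells, rose by 6.02 in heart and at least 104-fold in POD5 liver, where it was not well above background on any control (adjusted P = 8.8e-04 and 0.0020). NK cell markers rose for 4 of 4 genes in heart, 0 of 4 at POD5 by limma (3 at an unadjusted P under 0.05) and 3 of 4 at POD8, with sums of 91.1 to 121 and 393 to 505 in heart controls and allografts and of 36.1 to 53.1, 83.6 to 167 and 114 to 185 in control, POD5 and POD8 livers. Of these 4 genes, 3 were not well above background on any liver control. In the heart controls and in the POD5 livers, 1 of 4 was not well above background on any array. Eomes, an NK and T cell transcription factor, rose by at least 8.28-fold in heart (adjusted P = 8.6e-04).

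Macrophage and monocyte markers rose for 1 of 5 genes in heart (Ly6c2 by 1.71, adjusted P = 0.0020) and 2 of 5 in liver at each day (Ccr2 by 3.13 at POD5, adjusted P = 0.021). Their sums were 49764 to 63675 and 122063 to 144936 in heart controls and allografts and 4458 to 11007, 31507 to 35303 and 35381 to 37931 in control, POD5 and POD8 livers. Kupffer cell markers fell for 2 of 4 genes in heart (Vsig4 by -4.57, adjusted P = 0.0042), and 1 of 4, Marco, rose at POD8 by 2.26 (adjusted P = 0.038), with 1.86 at POD5 (adjusted P = 0.070). Their sums were 583 to 2970 and 1346 to 8722 in heart controls and allografts and 14269 to 35265, 50831 to 69290 and 67511 to 89998 in the liver groups. Of 5 B cell markers limma called 0 in any of the 3 comparisons, with 1 at an unadjusted P under 0.05 in each, and their sums overlapped between allografts and controls in both organs. Ms4a1 was at 0.75 in POD5 liver (adjusted P = 0.49).

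Endothelial markers fell for 6 of 6 genes in heart, with Vwf at -2.15 (adjusted P = 0.0048). In POD5 liver 1 of 6, Vwf, fell, at -1.27 (adjusted P = 0.031). The other 5 had positive differences there that were not called, and the list median was 0.34. The sums of the markers were 11231 to 15996 in heart controls and 3436 to 4115 in heart allografts. In liver they overlapped, at 3193 to 4282 in controls and 3315 to 5166 at POD5. Pecam1 was at 1.36 in POD5 liver (adjusted P = 0.28). Of 6 cardiomyocyte markers 3 fell in heart, where Myh6 was at -1.66 (adjusted P = 0.15), and their sum was 474416 to 692744 in heart allografts. In POD5 liver 1 of the 6 was called higher, Actc1 by 1.77 (adjusted P = 0.043), and 1 was called lower. Of the 6, 3 were not well above background on any POD5 liver array. Of 4 hepatocyte markers limma called 0 in liver, with 0 at an unadjusted P under 0.05 at either day. In heart 1 was called higher, Ass1 by 3.44 (adjusted P = 6.5e-04), and 1 was called lower. Of the 4, 3 were not well above background on any array of either heart group. Apoa1 was not well above background on any heart array. Of 4 red cell markers Hba-a1 fell in heart (-1.09, adjusted P = 0.044) and Alas2 in POD5 liver (-1.74, adjusted P = 0.046).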

How the data were processed

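Expression was measured on 15 single-colour Agilent arrays with Cy3-labelled total RNA, 3 for each of 5 groups taken from the sample labels. Per the file headers, the deposited processed intensity of a spot is linear and comes from Agilent's extraction software, which removes a local background. The deposited arrays are not normalized against each other, and the files mark outlier spots and spots well above background. The deposited median intensities of spot and background were used in 1 alternative.

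Here spots marked as outliers were left out (47 to 113 an array, 0 saturated), log2 of the processed intensity was averaged over the spots of a probe, and all 15 arrays were quantile normalized. The study's methods used natural logs and Bonferroni adjustment. Probes were named by the accession in the files through a RefSeq table of GRCm38.p6, in which 26690 of 41174 probes (64.8%) matched. For genes with several probes the brightest was used. Each comparison was fitted with limma 3.58.1 (R 4.3.3) on its own arrays, with Benjamini-Hochberg adjustment over all probes at 0.05, and intervals cover 95%. A called rise or fall whose lower group was not well above background on any array is given as a bound, which holds for the main processing only. SFC used a bin of 1000 probes and a standard normal reference. An exact permutation test of 3 against 3 arrays cannot go below P = 0.1 and was not used. The number of arrays limits the precision. Figures were drawn with matplotlib 3.10.9.

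The members and gene lists were chosen with earlier results of these data known. Besides the 5 members, the genes named were the rest of the family, the atlastins, Ifng and Irf1, the gene with the largest absolute difference in heart and in POD5 liver from each other list, and the probes most like the members. Ifngr2 was named after its values were seen, and some genes that this rule names are not reported here. All steps were tested on simulated data. Alternatives covered normalization, background, filters, prior, adjustment, blocks, tests and each array in turn.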

Additional observations from a re-analysis of the deposited data

Results flagged for a closer look

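The response to allografting at POD5 differed between organs for 3 of the 5 guanylate-binding proteins by the interaction test in limma. Over all probes, 6.41% had a larger and 7.26% a smaller difference in heart. The heart log2 difference minus the liver log2 difference was 6.30 for Gbp2b (adjusted P = 0.0012), 2.53 for Gbp6 (adjusted P = 0.0063) and 1.37 for Gbp5 (adjusted P = 0.020). Gbp2b was well above background on 0 of 3 heart controls, so that its value is not a measured fold. The Gbp5 call was lost without heart control replicate 3 and with the slide as a random block.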

How the results depend on the processing

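All 5 members stayed higher than their controls in each organ and at each day under every alternative run, and no called difference of a member reversed. With Bonferroni adjustment in limma, 2 of 5 were called in heart, 1 in liver at POD5, 1 at POD8, 0 for the difference between organs, 0 between the controls and 0 between the POD5 allografts. Over all probes the counts in the same order were 98, 9, 39, 77, 1142 and 712. The methods' t-test called 1 of 5 in POD5 liver and 4 of 5 at POD8 after Benjamini-Hochberg adjustment. Of all probes it called 231 of 41155 and 816 of 41157 there. After Bonferroni adjustment it called 0 in heart, 1 at POD5, 1 at POD8, 0 between controls and 0 between POD5 allografts. Its counts over all probes were then 19, 6, 14, 366 and 189. SFC called 0 between controls and 0 between POD5 allografts, with 595 and 1301 over all probes. Replicate numbers did not pair the samples (correlations of deviations from -0.123 to 0.0438). With the replicate number as a block, 0 of 5 were called in liver at POD5 (adjusted P from 0.11 to 0.15) and 0 at POD8 (0.064 to 0.11), with all differences as before, and the counts in the other comparisons were the same. The slide as a fixed block left 0 calls at POD8. Leaving out 1 array at a time gave 5 calls throughout in heart, 1 to 5 at POD5, 3 to 5 at POD8, 2 to 3 for the difference between organs, 4 between controls and 4 to 5 between POD5 allografts. The difference between organs changed sign for Gbp2, to -0.12 with 75th percentile scaling and -0.15 and -0.21 without heart control replicate 2 and liver control replicate 3 (range -0.21 to 0.57 over single arrays left out), and for Gbp3, to 0.00285 with normexp correction and between 0.049 and 0.15 without heart POD5 replicate 2, heart control replicate 1, liver POD5 replicate 3 or liver control replicate 1 (range -0.32 to 0.15). Neither was called in any of these, and the cause was not tested.

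Scaling to the 75th percentile moved the median of all probes to 0.47 in heart, -0.38 at POD5, -0.46 at POD8, 0.64 for the difference between organs and -0.76 between controls. Relative to that median the members rose by 2.49 to 10.41 in heart, 3.53 to 5.25 at POD5 and 3.74 to 5.13 at POD8, while the difference between organs was -0.76 for Gbp2, -0.84 for Gbp3 and 0.53 for Gbp5. The number of all called probes went in liver at POD5 from 1301 to 0 with the replicate block, 28 without POD5 replicate 2 and 6205 in 1 fit of all groups, and at POD8 from 2046 to 0 with either fixed block and 12875 with 75th percentile scaling. In heart it went from 13116 to 98 with Bonferroni adjustment, 19 by the methods' t-test with that adjustment, 21196 with 75th percentile scaling and 7953 or 7547 without heart control replicate 1 or 3, and for the difference between organs from 5605 to 77, 15596 and 3197 or 2876. Each member had 1 probe, so that other rules for several probes had nothing to change. The slide could not be fitted as a block in heart, and scan and slide were the same division. The POD5 livers shared no slide with the liver controls, so that a fixed slide block could not separate these groups. The dim liver control arrays, with a 75th percentile of 92.1 to 226, limit how low a control level could be measured.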
